A study of Mus musculus with 12 samples.

Results

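The genes described here are 10 regulators of the mammalian cell cycle: the D-type cyclins Ccnd1, Ccnd2 and Ccnd3, the E-type cyclin Ccne1, the B-type cyclins Ccnb1 and Ccnb2, the cyclin-dependent kinases Cdk4 and Cdk6, the transcription factor E2f1 and its repressor Rb1. They were chosen by name from the 21631 protein-coding genes on chromosomes 1 to 19 and X. Each was followed over its GRCm38 span with 5 kb added on each side, in 6 ChIP-seq libraries of H3K27ac, the histone H3 acetylation found at active promoters and enhancers. The libraries came from mouse adipocyte progenitors, cells of fat tissue that can become adipocytes. In 3 libraries (replicates 1, 2 and 8) the cells were Azin2-/-, that is, they lacked antizyme inhibitor 2, a protein that frees ornithine decarboxylase from antizyme. In 3 others (replicates 1, 2 and 2b) they were wild-type; the labels do not say how replicates 2 and 2b are related, and they were counted as separate samples. Cells of both genotypes had, per the labels' protocols, 1 week of growth with 4.5 g/l glucose and 10% serum, then 2 days of 1 µM rosiglitazone, 1 µM dexamethasone, 0.5 mM IBMX and 5 µg/ml insulin together, then 5 days of insulin. Neither the nature of the knockout allele nor the number of animals is stated in the labels, so p-values measure only the spread between these libraries, which may be technical.

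D-type cyclins activate Cdk4 and Cdk6, which phosphorylate the retinoblastoma protein encoded by Rb1. This releases E2F transcription factors, and E2F targets such as Ccne1 then carry the cell into DNA replication, while cyclin B proteins activate Cdk1 for mitosis. Preadipocytes given an adipogenic hormone mixture in culture are known to pass through a round of division, called mitotic clonal expansion, before they leave the cell cycle. In mouse models, E2f1, cyclin D3 and Cdk4 have been described as promoting adipogenesis through Pparg.

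Because the deposited files are peak lists without read counts, the value compared was the covered length, the number of base pairs of a gene's window that lay under the 30000 strongest peaks of a library, ranked by the authors' p-value. A covered length of 0 means that no peak of this strength was there, not that the mark was absent. In bulk cells, fewer cells carrying the mark and less of the mark per cell cannot be told apart. For tests, lengths were scaled so that all libraries had the same total, and log2 values were formed after adding 500 bp, so that differences at short lengths are understated.

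Read totals are unknown, and a background level derived from the deposited fold and p-value was used as a proxy for depth. It rests on the assumption that the authors' fold adds 1 to the pileup and to the background. This level was 0.293, 0.462 and 1.016 fragments per bp in Azin2-/- replicates 1, 2 and 8. In wild-type replicates 1, 2 and 2b it was 0.164, 0.433 and 0.303. Peaks at a deposited q of 0.01 or less numbered 6858 in wild-type replicate 1, 26146 in Azin2-/- replicate 1 and 9798 to 15091 in the others. Cell type markers did not all follow the label: of 8 adipocyte markers 3 or 4 had cover in each library, with Cebpa at its start in all 6 libraries and Adipoq listed at 0 in all 6. Summed scaled cover of the adipocyte list ran from 4479 to 5793 bp over the Azin2-/- libraries and from 4138 to 6527 bp over wild-type. Of 8 progenitor or fibroblast markers 4 to 6 had cover, with sums of 3584 to 5941 and 4298 to 13165 bp. These sums join opposite directions: of the 6 markers tested, 2 were higher and 4 lower in Azin2-/- on the log2 scale. In 1 of the 6 the genotypes did not overlap, beside 11.6% of all loci tested. Of 4 macrophage or leukocyte markers 2 or 3 had cover, with sums of 1428 to 2152 bp in Azin2-/- that did not overlap the 817 to 1272 bp of wild-type. These sums join different genes in different libraries. Cd68 had 1298, 0 and 1048 bp of unscaled cover in Azin2-/- replicates 1, 2 and 8. In wild-type replicates 1, 2 and 2b it had 15, 0 and 94 bp. In the 1 marker of this list that was tested the genotypes overlapped, with a limma log2 difference of 0.03. Muscle markers (0 to 3 of 4 with cover) gave 1469 to 2269 and 0 to 1556 bp, endothelial markers (1 to 4 of 4) 2751 to 4608 and 827 to 3800 bp, and epithelial markers (2 to 4 of 4) 2366 to 3636 and 1983 to 2748 bp. The part of this background level and of these markers in the differences below was not tested.

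The starts of Ccnd3, Cdk6 and E2f1 and one end of Rb1 carried a strong peak within 1 kb in all 6 libraries. These 4 of 10 genes stand beside 18.8% of all protein-coding genes that had such a peak in every library. Here a start is one annotated by RefSeq. For Ccnd1, Ccnd2 and Rb1 the tables used here give no strand, so both gene ends took its place. The 2 B cyclins, Cdk4, Ccne1 and Ccnd2 had a peak in more Azin2-/- than wild-type libraries, which makes 5 of 10 genes beside 24.3% of all genes. For Ccnd2 this joins a peak at the higher end in Azin2-/- replicate 1 with one at the lower end in Azin2-/- replicate 8. For Ccnb1 it rests on Azin2-/- replicate 1 alone. None of the 10 had such a peak in fewer Azin2-/- than wild-type libraries, beside 10.1% of all genes. Genes without such a peak in any library count in the base of the 18.8%, the 24.3% and the 10.1% and lower each. The same holds for the shares of all genes given next. None of the 10 was a gene without such a peak in any library. Such a peak was present at 6 genes in every Azin2-/- library (29.8% of all genes), at 4 in every wild-type library (22.6%) and at all 10 in at least 1 library (59.6%). The number of the 10 genes with a peak was 10, 7 and 8 in Azin2-/- replicates 1, 2 and 8, against 4, 6 and 7 for wild-type replicates 1, 2 and 2b. The share of all genes with one was 51.3%, 38% and 36.7% in Azin2-/- and 30%, 34.9% and 40.7% in wild-type. Both values were highest in Azin2-/- replicate 1 and lowest in wild-type replicate 1, and between these the order of the libraries differed.

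**Figure D1:**
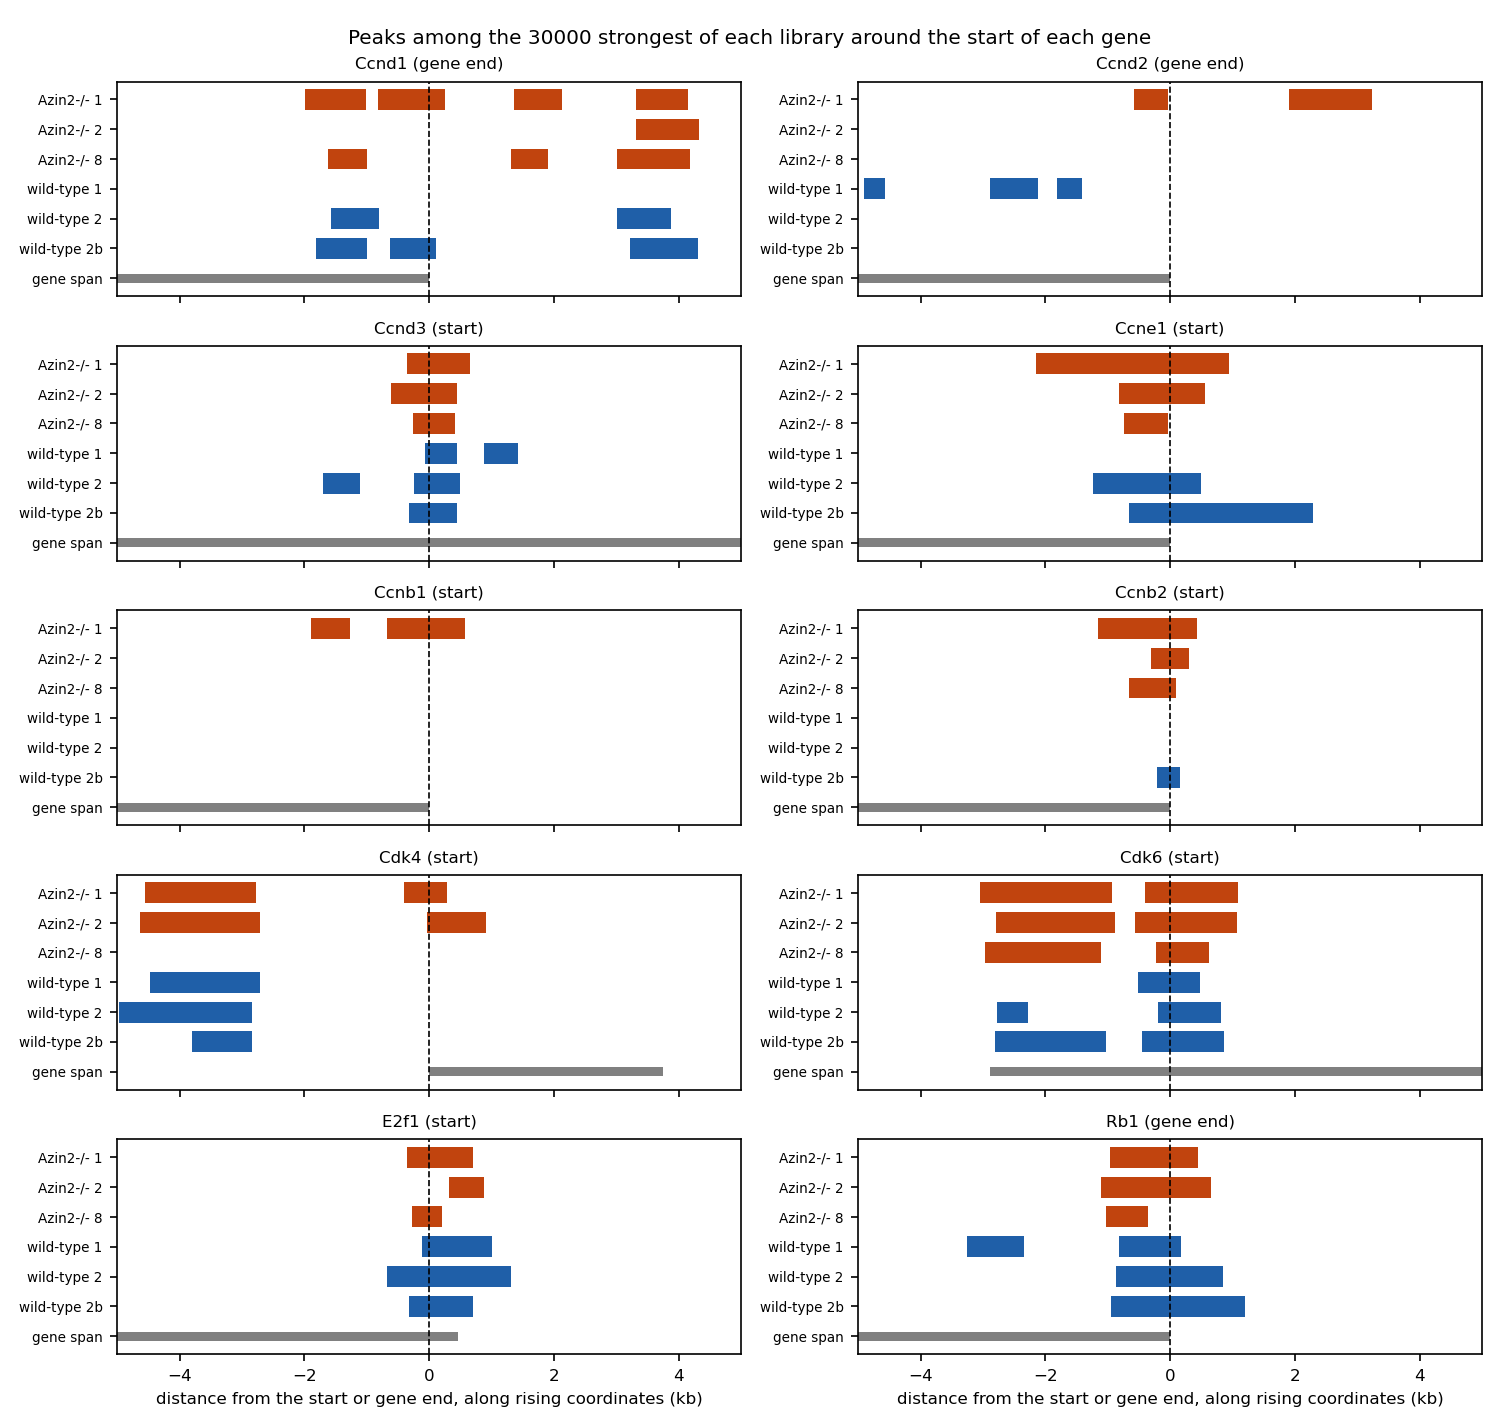
Peaks among the 30000 strongest of each library (bars; orange Azin2-/-, blue wild-type) within 5 kb of 1 start or gene end of each of the 10 genes; the x axis is the distance in kb along rising coordinates, and the grey bar is the gene span. The Ccnd3, Cdk6, E2f1 and Rb1 rows are filled in all 6 libraries, and the Ccnb1 start only in Azin2-/- replicate 1.

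D-type cyclins couple growth signals to the cell cycle. Ccnd1, at chr7:144929931-144939831, had 3659, 1001 and 2393 bp of cover in Azin2-/- replicates 1, 2 and 8, and 0, 1654 and 2680 bp in wild-type replicates 1, 2 and 2b. The genotypes overlapped, with wild-type replicate 1 the lowest library. The scaled means were 2200 ± 1028 bp for Azin2-/- against 1326 ± 1173 bp for wild-type (SD, n = 3). With limma the log2 difference was 0.81 ± 0.62 (SE), with an adjusted p of 0.816. All of this cover lay at the higher-coordinate end of the gene and beyond it. A region at that end, chr7:144937847-144940081, was held by 4 libraries, 2 of each genotype, and not by Azin2-/- replicate 2 or wild-type replicate 1. A second region began 3005 bp past the end, at chr7:144942836-144944150, and was held by every library but wild-type replicate 1. Another region, between them at chr7:144941145-144941968, was held by Azin2-/- replicates 1 and 8 alone.

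Ccnd2, at chr6:127125162-127152188, had cover in 3 of the 6 libraries. It had 1889, 0 and 1095 bp in Azin2-/- replicates 1, 2 and 8, and 1531, 0 and 0 bp in wild-type replicates 1, 2 and 2b. The genotypes overlapped, and the 3 libraries with cover had it in different places. In Azin2-/- replicate 1 the longer peak lay 1904 bp past the higher end, in Azin2-/- replicate 8 the peak lay 643 bp inside the lower end, and wild-type replicate 1 had 3 peaks inside the gene. A limma log2 difference of 0.47 ± 0.82 (SE) went with an adjusted p of 0.923.

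Ccnd3, at chr17:47505051-47599689, has 2 starts in the annotation. The first is at 47505051 and the second is 88416 bp downstream, at 47593467. Within 2 kb of the first start no library had a strong peak, whereas the second start lay under one in all 6. Its peak ranked 1747, 544 and 4024 in Azin2-/- replicates 1, 2 and 8, and 3394, 5179 and 4639 in wild-type replicates 1, 2 and 2b. Rank 1 is the strongest peak of a library, and ranks over 30000 fall outside the lists used. The 2 windows of 300 bases (250 before and 50 after the start, RefSeq, GRCm38.p6, + strand) are printed because the mark distinguishes them. Capitals mark GC boxes (GGGCGG, or CCGCCC for the other strand), which Sp1 family factors bind, and CCAAT boxes, which NF-Y binds; the first window is chr17:47504801-47505100 and the second chr17:47593217-47593516.
Ccnd3 first start: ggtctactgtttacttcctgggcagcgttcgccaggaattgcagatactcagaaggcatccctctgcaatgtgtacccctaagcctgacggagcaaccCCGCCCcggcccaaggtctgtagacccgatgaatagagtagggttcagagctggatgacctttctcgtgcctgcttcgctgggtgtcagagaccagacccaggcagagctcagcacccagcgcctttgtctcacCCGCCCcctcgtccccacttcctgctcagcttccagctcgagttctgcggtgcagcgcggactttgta
Ccnd3 second start: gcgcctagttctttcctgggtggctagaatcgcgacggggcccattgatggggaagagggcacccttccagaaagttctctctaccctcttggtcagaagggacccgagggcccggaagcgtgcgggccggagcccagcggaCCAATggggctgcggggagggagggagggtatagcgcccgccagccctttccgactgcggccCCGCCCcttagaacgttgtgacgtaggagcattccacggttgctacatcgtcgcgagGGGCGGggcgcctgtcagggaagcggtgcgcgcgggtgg
The first window had a GC content of 59.3% and a ratio of observed to expected CpG of 0.58, and the second 67.0% and 0.85. The medians over 32851 RefSeq promoter windows of this length were 52.7% and 0.38. Each window held 2 GC boxes, which 35.7% of all windows held at least once on either strand, and the second also held 1 CCAAT box, found in 37.4%. Of the 300 bases, strong peaks covered 0 at the first start in every library, and at the second 300 in all Azin2-/- libraries and 123, 296 and 300 in wild-type replicates 1, 2 and 2b.

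Over its whole window Ccnd3 had 1007, 3430 and 668 bp in Azin2-/- replicates 1, 2 and 8, and 2198, 1928 and 2073 bp in wild-type replicates 1, 2 and 2b. Azin2-/- replicate 2 was the highest library and the other Azin2-/- libraries were the lowest, so that the genotypes overlapped. In Azin2-/- replicate 2 most of the cover came from 4 peaks inside the long first part of the gene. In wild-type replicate 2b a peak of 1303 bp lay over the start of the neighbour Taf8, a subunit of the general transcription factor TFIID. The genotype difference in limma was -0.54 ± 0.48 on the log2 scale (SE), with an adjusted p of 0.841.

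Ccne1 encodes cyclin E1, which activates Cdk2 at the entry into DNA replication. At chr7:38097984-38107490 it had 3091, 1375 and 704 bp in Azin2-/- replicates 1, 2 and 8, and 0, 1737 and 4058 bp in wild-type replicates 1, 2 and 2b. The lowest and the highest library were both wild-type. The cover belonged to 1 region over the start, chr7:38105344-38109777, held by every library but wild-type replicate 1, apart from a further peak of 1105 bp beyond the other gene end in wild-type replicate 2b. The scaled means were 1557 ± 864 bp for Azin2-/- against 1737 ± 1688 bp for wild-type (SD, n = 3). The limma log2 difference had the other sign, 0.23 ± 0.68 (SE; adjusted p = 0.955), and without wild-type replicate 1 it was -0.64.

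The B cyclins, whose proteins drive mitosis with Cdk1, had most of their cover in Azin2-/- libraries. Ccnb2, at chr9:70407689-70421554, had 1585, 608 and 753 bp in Azin2-/- replicates 1, 2 and 8. It had 0, 0 and 378 bp in wild-type replicates 1, 2 and 2b. Every Azin2-/- library was above every wild-type library. Of 9 genes tested this was the only one whose genotypes did not overlap, beside 6.72% of 11670 loci that were higher without overlap, 4.93% that were lower and 11.6% in either direction. The scaled means were 909 ± 333 bp for Azin2-/- against 105 ± 181 bp for wild-type (SD, n = 3). The limma log2 difference was 1.23 ± 0.64 (SE, 95% confidence interval -0.17 to 2.64), with an unadjusted p of 0.0793 and an adjusted p of 0.778, so the difference did not pass the test. The mean over the 6 libraries, 506.7 bp, was just above the minimum of 500 bp for testing, and the locus reached it through the Azin2-/- libraries. The summed macrophage or leukocyte markers, given above, also lay higher in all Azin2-/- libraries, a sum that joins different genes in different libraries. In every library, 0 of these markers had a strong peak within 1 kb of a start or gene end, which does not show that the mark was absent there. The part of these markers in the Ccnb2 difference was not tested.

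All of the Ccnb2 cover came from 1 peak per library at the start of the gene, within chr9:70420399-70421983. Its rank was 4679, 872 and 3295 in Azin2-/- replicates 1, 2 and 8 and 11529 in wild-type replicate 2b. In wild-type replicates 1 and 2 the best deposited peak there ranked 104783 and 219243, outside the 30000 strongest. Between the libraries of near-equal implied background, the scaled cover was 1274 bp in Azin2-/- replicate 1 against 314 bp in wild-type replicate 2b, and 624 bp in Azin2-/- replicate 2 against 0 in wild-type replicate 2. These pairs were not equal in their peaks at a deposited q of 0.01 or less. The first pair had 26146 against 12601 and the second 15091 against 12867. Over the 10 genes the Azin2-/- library of the first pair was higher for 6 and lower for 4, and that of the second pair higher for 4, lower for 4 and equal for 2. For Cdk6 the first pair had 2896 against 3143 bp and the second 4443 against 1611 bp.

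Ccnb1, at chr13:100778739-100786486, had 1888, 0 and 847 bp in Azin2-/- replicates 1, 2 and 8 and 0 in each wild-type library. The cover of Azin2-/- replicate 8 lay not at Ccnb1 but over the start of its neighbour Cenph, a kinetochore protein. At the Ccnb1 start itself only Azin2-/- replicate 1 had a strong peak, at rank 8506. The mean of 408.3 bp was under the minimum, so Ccnb1 was not tested with the other genes. With no minimum its limma log2 difference was 1.18 ± 0.63 (SE; adjusted p = 0.836), a value that depends on the 500 bp added.

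The windows at the starts of the B cyclins are printed because they carry the motifs known from genes expressed before mitosis. Capitals mark CCAAT and, in Ccnb2, TTTGAA, the cell cycle homology region bound by the MuvB complexes of DREAM and B-Myb. Both windows are of 300 bases on the - strand (RefSeq, GRCm38.p6), chr9:70421505-70421804 for Ccnb2 and chr13:100786437-100786736 for Ccnb1.
Ccnb2: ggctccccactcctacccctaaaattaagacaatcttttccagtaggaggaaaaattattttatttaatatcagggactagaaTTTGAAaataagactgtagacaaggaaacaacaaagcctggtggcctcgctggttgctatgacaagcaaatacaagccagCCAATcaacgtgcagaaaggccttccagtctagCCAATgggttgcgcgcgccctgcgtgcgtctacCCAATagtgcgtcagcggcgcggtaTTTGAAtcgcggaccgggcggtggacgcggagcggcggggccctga
Ccnb1: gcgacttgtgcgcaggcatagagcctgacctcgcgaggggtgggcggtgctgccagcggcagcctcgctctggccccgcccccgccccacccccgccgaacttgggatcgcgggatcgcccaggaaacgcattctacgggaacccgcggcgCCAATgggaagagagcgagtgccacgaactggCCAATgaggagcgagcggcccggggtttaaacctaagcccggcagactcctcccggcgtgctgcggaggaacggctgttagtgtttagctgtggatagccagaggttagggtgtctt
Ccnb2 held 3 CCAAT boxes, which began 87, 54 and 21 bases before the start, and 2 TTTGAA motifs, one 167 bases before it and one at base 5 from it. Windows with 3 or more CCAAT on either strand made up 3.37% of all promoters, and those with 2 or more TTTGAA 2.31%. Ccnb1 held 2 CCAAT boxes, 99 and 67 bases before its start, and 11.7% of promoters held 2 or more. It held no TTTGAA in these letters, and other forms of this motif were not searched for. Of the 300 bases of Ccnb2, strong peaks covered 300, 300 and 150 in Azin2-/- replicates 1, 2 and 8 and 0, 0 and 212 in wild-type replicates 1, 2 and 2b. Those of Ccnb1 were covered in Azin2-/- replicate 1 alone.

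**Figure D2:**
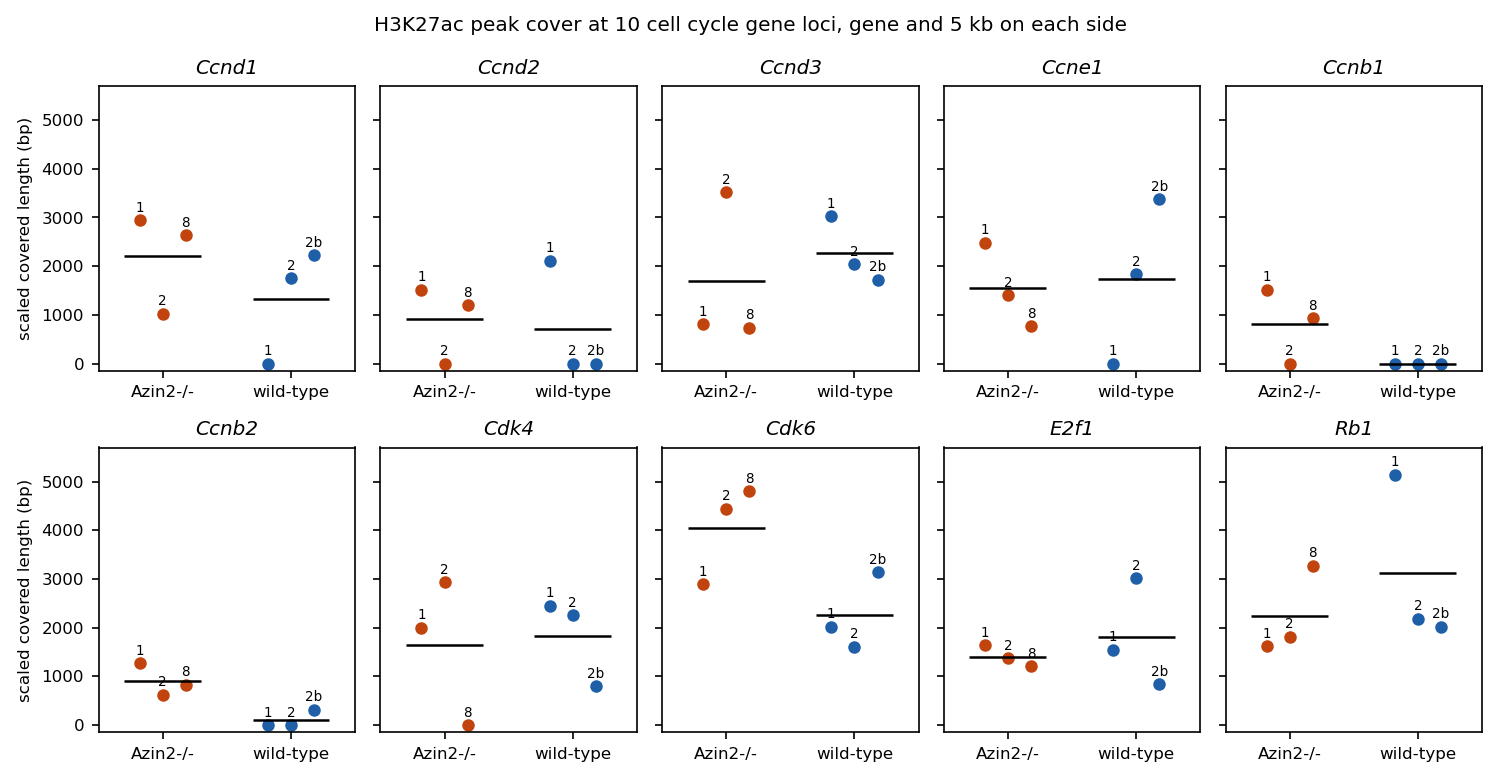
Scaled covered length in bp (y axis) of the window of each of the 10 genes in each library, with the replicate label beside each point and the genotype mean as a line. For Ccnb2 the Azin2-/- points lie above the wild-type points, and in the other tested genes the genotypes overlap.

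Cdk4 and Cdk6 are the kinases that D-type cyclins activate. Cdk4, at chr10:127063535-127067288, had 2489, 2856 and 0 bp in Azin2-/- replicates 1, 2 and 8, and 1777, 2135 and 962 bp in wild-type replicates 1, 2 and 2b. The highest and the lowest library were both Azin2-/-. Most of this cover was not at Cdk4: a region at chr10:127058561-127060830, held by every library but Azin2-/- replicate 8, contained the start of the neighbour Marchf9, a ubiquitin ligase. The Cdk4 start had a strong peak in Azin2-/- replicates 1 and 2 alone, of 696 and 947 bp, at ranks 26182 and 7180. Elsewhere the best deposited peak at this start ranked 203911 in Azin2-/- replicate 8 and 676845, 64916 and 47036 in wild-type replicates 1, 2 and 2b. The limma log2 difference over the whole window was -0.43 ± 0.67 (SE), with an adjusted p of 0.915, and it was 0.42 without Azin2-/- replicate 8.

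The Cdk4 start is printed because its motif content is rare among promoters while its cover was low. The window is chr10:127063285-127063584 on the + strand (RefSeq, GRCm38.p6), and capitals mark CACGTG, the E-box that Myc and related factors bind; in human cells CDK4 has been described as a target of Myc.
Cdk4: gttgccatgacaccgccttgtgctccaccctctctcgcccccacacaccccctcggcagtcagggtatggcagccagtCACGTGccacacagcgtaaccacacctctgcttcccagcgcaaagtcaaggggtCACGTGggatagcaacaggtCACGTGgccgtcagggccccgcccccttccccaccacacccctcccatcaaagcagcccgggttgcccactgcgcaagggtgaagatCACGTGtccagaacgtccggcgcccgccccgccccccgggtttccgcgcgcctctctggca
The 4 E-boxes began 172, 118, 98 and 11 bases before the start. CACGTG, which reads the same on both strands, was present in 7.15% of promoters, and 4 or more copies in 8 of 32851, or 0.0244%. Of these 300 bases, 300 lay under a strong peak in Azin2-/- replicate 1, 90 in Azin2-/- replicate 2 and 0 in the other libraries. Of the other windows at the 10 genes, that of Cdk6 held 1 CACGTG. None of the 8 windows found, for 7 of the 10 genes, held the E2F motifs TTTCCCGC, TTTGGCGC, TTTCGCGC or TTTGCCGC on either strand, which 2.26% of promoters held. Other forms of the E2F motif were not searched for, so E2F sites may still be present in them. The annotated starts of E2f1 and Cdk6 lie 466 and 2889 bp inside their gene spans, so these windows hold no sequence from outside the genes.

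Cdk6, at chr5:3341004-3531008, had the longest window of the 10 genes, 200 kb with its flanks, and strong peaks covered 2.05% of it in Azin2-/- and 1.13% in wild-type on average. It had 3602, 4331 and 4371 bp in Azin2-/- replicates 1, 2 and 8, and 1467, 1520 and 3784 bp in wild-type replicates 1, 2 and 2b. Wild-type replicates 1 and 2 were low, and wild-type replicate 2b was above Azin2-/- replicate 1, so that the genotypes overlapped. The scaled means were 4049 ± 1016 bp for Azin2-/- against 2259 ± 793 bp for wild-type (SD, n = 3). The limma log2 difference was 0.73 ± 0.35 (SE, 95% confidence interval -0.04 to 1.51), with an unadjusted p of 0.0616 and an adjusted p of 0.773. The cover formed a pair of neighbouring regions. The region over the annotated start, chr5:3343329-3344978, was held by all 6 libraries. The region before it, chr5:3340843-3343010 at the lower end of the gene span, was held by all but wild-type replicate 1. In wild-type replicate 2 the peak there was 512 bp long, and in the 4 other libraries that held it 1779 to 2122 bp. Single peaks deeper in the gene were found in Azin2-/- replicates 2 and 8 and in wild-type replicates 1 and 2b, each in 1 library.

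E2f1, the E2F factor that activates genes of DNA replication, lies at chr2:154559400-154569892. It had 2042, 1340 and 1098 bp in Azin2-/- replicates 1, 2 and 8, and 1122, 2845 and 1018 bp in wild-type replicates 1, 2 and 2b. The highest and the lowest library were both wild-type. The region around its start, chr2:154568750-154570733, was held by all 6 libraries. In Azin2-/- replicate 2 this peak was weak (rank 27126) and left the 300-base window at the start uncovered. A second region, chr2:154558200-154559306, contained a start of the neighbour Necab3 and was held by the Azin2-/- libraries and wild-type replicate 2. In the 4 kb around the E2f1 start alone the cover was 1054, 565 and 476 bp in Azin2-/- replicates 1, 2 and 8 and 1122, 1984 and 1018 bp in wild-type replicates 1, 2 and 2b. For the whole window limma gave a log2 difference of -0.17 ± 0.42 (SE) and an adjusted p of 0.945.

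Rb1, whose product holds E2F factors in check, lies at chr14:73192858-73325951. It had 2022, 1769 and 2975 bp in Azin2-/- replicates 1, 2 and 8, and 3729, 2063 and 2433 bp in wild-type replicates 1, 2 and 2b. The genotypes overlapped, and wild-type replicate 1 was the highest library. Of the 11 merged regions in this window 10 were held by 1 library. In the 4 kb around the higher-coordinate end alone the cover was 1411, 1769 and 675 bp in Azin2-/- replicates 1, 2 and 8. In wild-type replicates 1, 2 and 2b it was 993, 1714 and 2156 bp. The higher-coordinate end of Rb1 carried the best-ranked peak at any of the 10 genes, rank 106 in Azin2-/- replicate 8, and ranks 1318 and 1831 in Azin2-/- replicates 1 and 2. In wild-type replicates 1, 2 and 2b the ranks were 3689, 7776 and 1337. In limma the log2 difference was -0.35 ± 0.41 (SE), with an adjusted p of 0.884, and it was 0.02 without wild-type replicate 1.

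**Figure D3:**
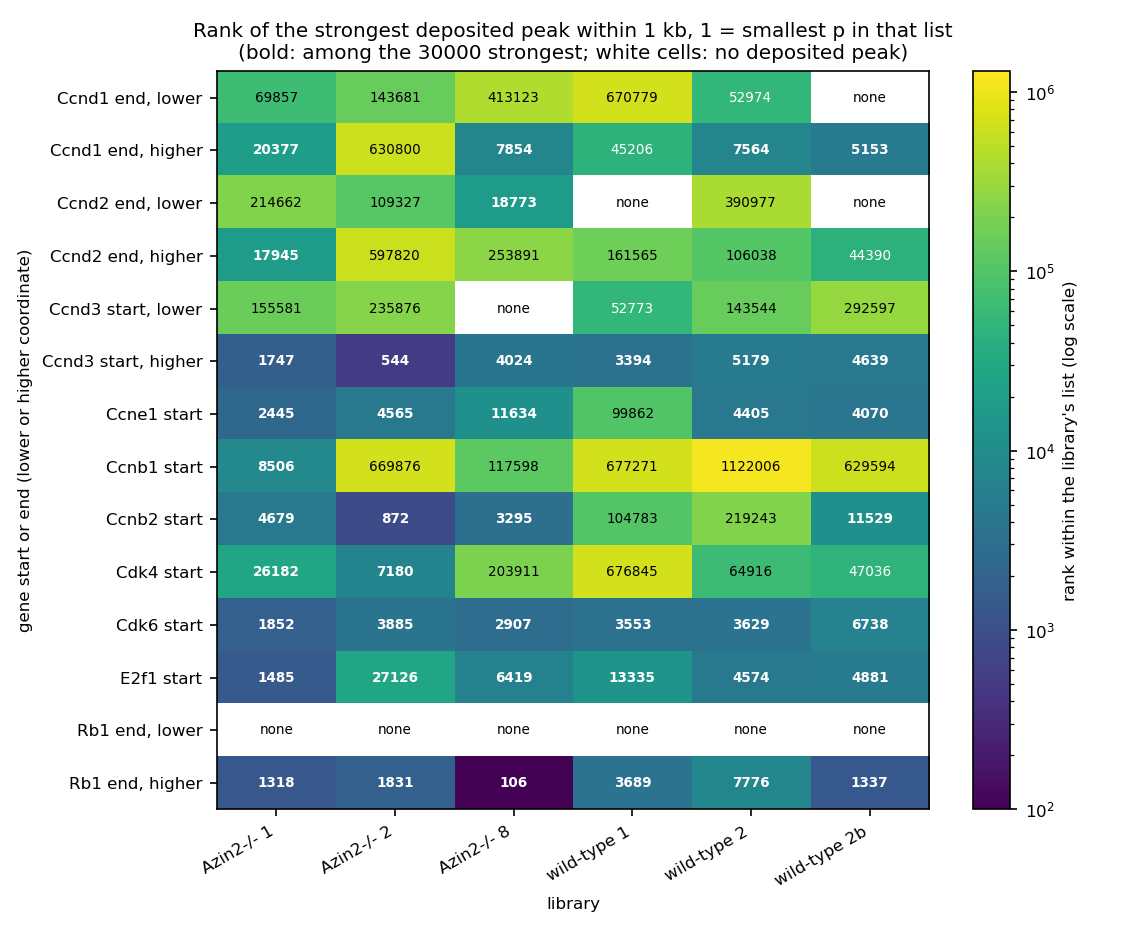
Rank within its library of the best deposited peak within 1 kb of each start or gene end of the 10 genes (rows) in each of the 6 libraries (columns), where a low rank is a strong peak. Ranks at the second Ccnd3 start, the Cdk6 start and the higher end of Rb1 run from 106 to 7776, and those at the Cdk4 start from 7180 to 676845.

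Levels at the starts could be compared over equal windows of 4 kb, within each of which the cover was scaled and averaged over the 6 libraries. Cdk6 came first with 1861 ± 605 bp, followed by the higher end of Rb1 with 1445 ± 445 bp and Ccne1 with 1435 ± 910 bp (SD, n = 6). E2f1 had 1074 ± 622 bp, the second Ccnd3 start 1030 ± 362 bp and the higher end of Ccnd1 940 ± 844 bp. Neighbours among these 6 lay within each other's SDs. The SDs run over the same 6 libraries of both genotypes, so they do not measure whether starts differ, which was not tested. Lower means belonged to Ccnb2 with 507 ± 501 bp, Cdk4 with 255 ± 416 bp, Ccnb1 with 253 ± 620 bp and the lower and higher ends of Ccnd2 with 201 ± 492 and 179 ± 278 bp. The order of the means was not the same within each genotype, which was not tested. In wild-type the means were 1659 bp for Rb1, 1499 bp for E2f1, 1452 bp for Cdk6 and 1352 bp for Ccne1. In Azin2-/- Cdk6 had 2270 bp, and Ccnb2, with 909 bp, stood above the second Ccnd3 start with 876 bp and E2f1 with 650.2 bp. The partner kinases differed, with Cdk6 above Cdk4 in each of the 6 libraries.

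Of the 9 genes tested, 5 had a positive and 4 a negative log2 difference (54.6% of all loci were positive), and their median was 0.23 beside 0.07 over 11670 loci. None passed an adjusted p of 0.05 or an unadjusted p of 0.05 with limma. Over all loci 0 passed the adjusted threshold in either direction (0%), and 506 higher (4.34%) and 249 lower (2.13%) had an unadjusted p under 0.05; no other tool was run. The confidence intervals leave room for sizeable differences, from -1.91 to 1.04 for Cdk4 and from -1.35 to 2.28 for Ccnd2. At the 10 loci the peaks of the 6 libraries merged into 51 regions, of which 38 were held by 1 library (74.5%, beside 85.8% of all 128486 regions). Another 4 were held by all 6 (7.84%, beside 3.23%). None was held by the 3 Azin2-/- libraries alone (0.412% of all regions), and none by the 3 wild-type libraries alone (0.0257%). Leaving out Azin2-/- replicate 2 or 8 or wild-type replicate 2 or 2b gave 1 region held by every remaining Azin2-/- library and no remaining wild-type library, at Ccnd1, Cdk4, E2f1 (the Necab3 start) and Ccnb2 in turn.

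**Figure D4:**
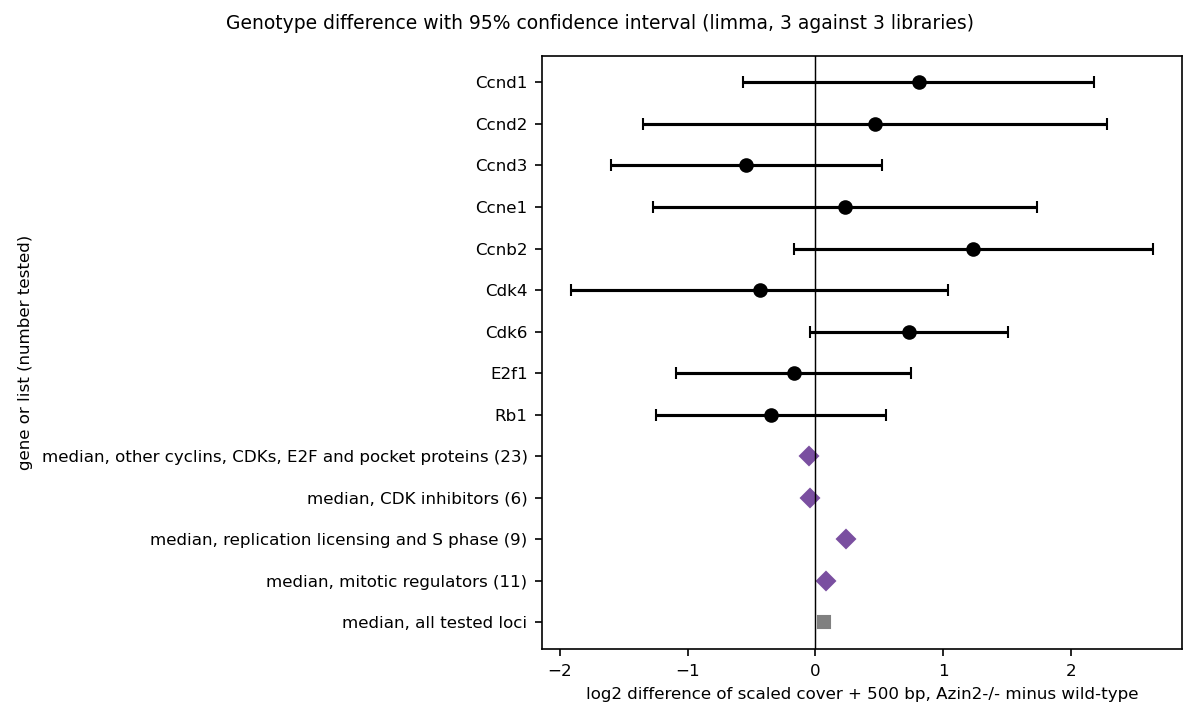
Log2 difference of scaled cover plus 500 bp, Azin2-/- minus wild-type (x axis), with its 95% confidence interval from limma for the 9 tested genes (circles), and the median over the tested genes of 4 further lists (diamonds) and over all 11670 loci (square). All 9 intervals include 0.

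Other genes of the pathway were followed through 4 lists. Of 27 other cyclins, CDKs, E2F and pocket protein genes, 23 were tested, with 11 positive and 12 negative differences, a median of -0.05 and 0 that passed an adjusted p of 0.05 with limma. In 3 of them the genotypes did not overlap, beside 11.6% of all loci. Ccna2, the cyclin of DNA replication and early mitosis, had 1126, 937 and 933 bp in Azin2-/- replicates 1, 2 and 8 and 0, 477 and 0 bp in wild-type replicates 1, 2 and 2b, with no overlap. Its limma log2 difference was 1.21 ± 0.61 (SE; adjusted p = 0.778), and it reached the minimum for testing through the Azin2-/- libraries. Cdk8, a kinase of the Mediator complex, had 1056, 0 and 0 bp in Azin2-/- and 1061, 1639 and 2034 bp in wild-type, again with no overlap, and reached the minimum through wild-type (-1.61 ± 0.55, limma adjusted p = 0.743). Ccna1, the cyclin A known from the germ line, had 1.37 ± 0.59 and Cdk5, a kinase known from neurons, -0.98 ± 0.55 (limma log2 difference ± SE; adjusted p = 0.758 and 0.787).

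CDK inhibitors hold cyclin-dependent kinases in check. Of the 7 genes, 5 had a strong peak at the start in all 6 libraries: Cdkn1a, Cdkn1b, Cdkn1c, Cdkn2b and Cdkn2c. The other lists had 8 of 27 such genes (other cyclins, CDKs, E2F and pocket proteins), 6 of 18 (mitotic regulators) and 3 of 15 (licensing and S phase), beside 18.8% of all genes. Genes without such a peak in any library lower this share. Cdkn1c, which encodes p57, had 4305, 4285 and 4170 bp in Azin2-/- replicates 1, 2 and 8 and 995, 3872 and 1480 bp in wild-type replicates 1, 2 and 2b. Only wild-type replicates 1 and 2b were low, and after scaling the genotypes overlapped (0.91 ± 0.41, limma adjusted p = 0.771). Cdkn1a, which encodes p21, had scaled means of 1067 ± 433 bp for Azin2-/- against 1765 ± 105 bp for wild-type (SD, n = 3) without overlap (-0.56 ± 0.37, limma adjusted p = 0.794). The 6 inhibitors tested had 3 positive and 3 negative differences and a median of -0.04, with 0 that passed. In 1 of the 6 the genotypes did not overlap, beside 11.6% of all loci. Cdkn2a had 0.53 ± 0.58 and Cdkn1b -0.55 ± 0.43 (limma log2 difference ± SE; adjusted p = 0.876 and 0.814).

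Of 15 genes of replication licensing and S phase 9 were tested, with 6 positive and 3 negative differences, a median of 0.24 and 0 that passed the limma threshold. Cdt1, which loads the replicative helicase, had the smallest p among the positive ones, with a log2 difference of 0.79. Mcm2, a helicase subunit, and Orc1, of the origin recognition complex, had -0.63 and -0.32. Orc1 was the 1 gene of the 9 tested without overlap, beside 11.6% of all loci. Mcm5 and Rrm2 had no strong peak in any library. Of 18 mitotic regulators 11 were tested, with 6 positive and 5 negative differences, a median of 0.08 and 0 that passed. The smallest p was that of Fzr1, which activates the anaphase-promoting complex and thereby the destruction of cyclin B. It had 4993, 4087 and 2320 bp in Azin2-/- replicates 1, 2 and 8 and 983, 648 and 669 bp in wild-type replicates 1, 2 and 2b, with no overlap. It was the 1 gene of the 11 tested without overlap, beside 11.6% of all loci. Its limma log2 difference was 1.60 ± 0.37 (SE), with an unadjusted p of 0.00129 and an adjusted p of 0.743. Lin54, of the MuvB complex, had 0.69, Aurka, a spindle kinase, -0.62, and Mki67, the proliferation marker, -0.29. Aurkb and Cdc25c had no strong peak in any library.

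By a rule on likeness of pattern, 1 gene on another chromosome was named for each tested gene, as the one with the smallest root mean square difference of log2(scaled cover + 500 bp) over the 6 libraries. These were Nalcn for Ccnd1 (0.19), Exosc1 for Ccnd2 (0.24), Ccdc122 for Ccnd3 (0.24), Adap2 for Ccne1 (0.17) and Wdr89 for Ccnb2 (0.15). They were Nptx1 for Cdk4 (0.21), Ncoa1 for Cdk6 (0.22), Celsr2 for E2f1 (0.14) and Rbfox2 for Rb1 (0.17). The median gene differed by 0.92 to 1.49 on this scale. A value under the median was fixed by the rule, which takes the smallest over many loci. The next closest genes lay at 0.14 (E2f1) to 0.28 (Cdk6), so the genes named do not stand apart from others.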

How the data were processed

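H3K27ac was profiled in 6 libraries, 3 Azin2-/- and 3 wild-type; 6 input libraries were not analysed here. The deposited files are 1 peak list per library on GRCm38 (mm10), per the submitters' processing notes; the sources used here name no aligner, peak caller or control. Per peak, the deposited lists hold the authors' score, fold ratio, -log10 p-value, -log10 q-value and summit offset. These were used only to rank or filter peaks within a list and, through fold and p (99.97% to 100% whole pileups within 0.001 on the log10 scale, in 3000 peaks per library), to derive the background level. Lists held 741843 to 1216000 peaks on chromosomes 1 to 19 and X. The deposited fold and p carry no replicate error.

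The 30000 peaks of smallest p per library were taken, and their cover was summed over each gene and 5 kb on each side and scaled to equal totals. Loci with a mean of at least 500 bp were tested with limma 3.58.1 (R 4.3.3; eBayes with a mean trend, log2 of cover plus 500 bp, two-sided) and Benjamini-Hochberg adjustment at 0.05 over all loci. Regions are peaks merged at 1 bp or more of overlap. The fit was tested on simulated data. Starts and promoter windows are from RefSeq (GRCm38.p6), which matched 7 of the 10 genes; strand is not given for Ccnd1, Ccnd2 and Rb1. Tables were handled with Python 3.11.15 and pandas 2.3.3.

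The 10 genes, the further lists and the tests were chosen with earlier results of these data known. All 10 genes were named, with the 2 tested genes of smallest p in each direction from each list, neighbours that share peaks with a gene's window, and the most alike gene; markers that the rule names are given as sums, and 1 gene that it names is not reported here. Replicate numbers are shared by the genotypes, but nothing says that a number marks a shared animal or day. Alternatives were other list lengths, a q of 0.01, other flanks, pseudocounts, minimums and scalings, each library left out, a replicate block, and the mean of wild-type replicates 2 and 2b as 1 sample.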

Additional observations from a re-analysis of the deposited data

How the results depend on the processing

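Over 128 alternatives to the 9 locus differences, 0 gave an adjusted p under 0.05 with limma (range 0.623 to 0.996) and 14 reversed the sign; Ccnd1, Ccnb2 and Cdk6 kept theirs in all those that gave a value. At a q of 0.01 or less, 22 loci of all genes passed as higher and 4 as lower, none of them among the 10 genes, and the log2 difference was 0.18 for Ccnd3, -0.35 for Ccne1, 0.07 for Cdk4 and 0.22 for E2f1. With 20 kb on each side it was 0.59 for Cdk4 and 0.09 for E2f1, and with 15000 peaks 0.26 for Cdk4. Without each library in turn it ran from 0.04 to 1.24 (Ccnd1), 0.06 to 1.30 (Ccnd2), -1.09 to -0.24 (Ccnd3), -0.64 to 0.82 (Ccne1), 1.12 to 1.43 (Ccnb2), -0.98 to 0.42 (Cdk4), 0.56 to 0.95 (Cdk6), -0.49 to 0.20 (E2f1) and -0.60 to 0.02 (Rb1). Regions held by the Azin2-/- libraries alone then numbered 0 to 1. Ccnb2 fell under the minimum without each Azin2-/- library, with 15000 peaks and at a q of 0.01, and Ccnd2 in the last 2. The cause of these changes was not tested. With the mean of wild-type replicates 2 and 2b as 1 sample, Ccnd2 had 0.07 and Ccne1 0.64, against 0.47 and 0.23. With the replicate block the log2 difference was -0.16 for Ccnd2 and 0.39 for Cdk4, and 0 loci passed, as without it. Same-numbered libraries correlated by -0.04, 0.116 and -0.069 in their deviations from the genotype means, and differently numbered ones by -0.091 to 0.081. Deviations from means of 3 libraries are not independent, so these values cannot decide whether same-numbered libraries share an animal or day. Peak lists limit what can be seen: short cover turns on 1 peak passing a rank, and read depth is unknown.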
